A study of Mus musculus with 15 samples.

Results

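Gene expression 4 h after the addition of curdlan was compared with that of nontreated cells in D1, a dendritic cell (DC) line. The comparison used 6 of the 15 arrays of the series, namely the 3 arrays labelled curdlan 4 h, without FK506, and the 3 arrays labelled D1 nontreated. D1 is a long-term line of splenic DCs from C57BL/6 mice that depends on growth factor from fibroblast supernatant, so the arrays, labelled as biological replicates, are samples of 1 line and not of different animals, and p-values measure the spread between these samples. Curdlan was given at 10 µg/ml, and no array of a vehicle or of cells kept for 4 h without curdlan was used here, so the time in culture and curdlan cannot be told apart. The other 9 arrays were cells given curdlan for 2 h and cells given curdlan with the calcineurin inhibitor FK506 for 2 h or 4 h. They entered the model that estimates the spread, and of them the curdlan 2 h arrays alone were compared with the 4 h arrays.

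Curdlan is a beta-glucan polymer that DCs bind through dectin-1 (Clec7a), a C-type lectin receptor for fungal cell walls. The receptor signals through the kinase Syk, from which one branch leads through Card9, Bcl10 and Malt1 to NF-kB and another through phospholipase C gamma and calcium to calcineurin and NFAT. In DCs this receptor is known for the release of cytokines that attract neutrophils and instruct T cells.

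Levels are log2 intensities after robust multi-array averaging (RMA), so that a difference of 1 is a doubling. Correlations between arrays of a group averaged 0.9935 to 0.9991, and the lowest array weights were those of replicate 1 of the nontreated cells (0.0781) and replicate 3 of curdlan 2 h (0.119), which differed most from their groups. The median SD of a gene was 0.052 over the 3 curdlan 4 h arrays and 0.126 over the 3 nontreated arrays. In all, 11799 probe sets of the array carry no gene symbol, and their median level was 6.15 to 6.20 on the curdlan 4 h arrays and 5.87, 5.99 and 6.02 on nontreated replicates 1, 2 and 3. A fit with this median as a covariate was therefore run beside the main one. The covariate does not overlap between the 2 groups, and 1196 of these probe sets were themselves called higher with curdlan. That fit can therefore remove part of a curdlan difference, and a call lost in it cannot be assigned to curdlan or to the arrays. Where the covariate, centring or the removal of nontreated replicate 1 ended the call of a named gene, this is given with the result. The same holds where they moved a printed count of list members by over 1.5 times. Counts that are not printed may have moved without a note. The part of these arrays in the differences was not tested further. Differences, and single numbers in parentheses after a gene, are log2 values of curdlan 4 h minus nontreated. Their median over all 19937 genes was −0.12, so a list is read against that value. DC genes were present in both groups (mean level of 15 conventional DC markers 9.82 to 9.85 with curdlan and 9.62 to 9.64 in nontreated cells), and 0 of 11 housekeeping genes were called (limma, 4 at an unadjusted p under 0.05), with Actb at 0.01.

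A gene was called where limma gave an adjusted p under 0.05 and a change of at least 1.5-fold. With curdlan at 4 h, 1007 genes rose and 828 fell, which is 5.05% and 4.15% of the 19937 genes tested. The 3 curdlan values lay clear of the 3 nontreated values in every called gene, as they did in 50.6% of all genes. The rises were larger than the falls. Of the raised genes, 139 rose at least 4-fold, 20 of them more than 16-fold, and 532 (52.8%) rose less than 2-fold. Of the lowered genes, 6 fell at least 4-fold and 663 (80.1%) fell less than 2-fold. The balance of higher and lower calls depended on how the arrays were levelled. It was 54.9% higher as reported, 70.5% after centring each array on its median (1300 higher, 545 lower), and 38.7% with the covariate (839 higher, 1327 lower). Without nontreated replicate 1, 871 genes were higher and 924 lower.

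**Figure D1:**
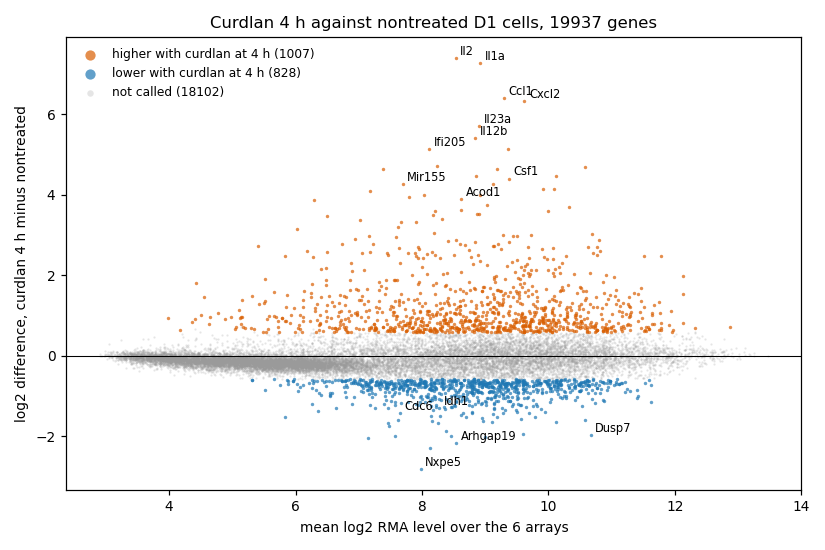
Log2 difference of curdlan 4 h minus nontreated (vertical axis) against the mean log2 RMA level over the 6 arrays (horizontal axis), with 1 point per gene. Orange points are the 1007 genes called higher, blue points the 828 genes called lower and grey points the genes not called, and the rises reach 7.41 (Il2) while the falls end at −2.82 (Nxpe5).

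Cytokines and chemokines led the rises. Il2, the T cell growth factor, measured 12.22, 12.23 and 12.27 with curdlan, against 4.97, 4.72 and 4.79 in nontreated cells. Its rise was 170.0-fold (log2 difference 7.41 ± 0.08, limma SE, 3 arrays per group, adjusted p = 1.89e-15). This SE, like those after it, rests on a spread estimated from all 15 arrays. The nontreated mean of Il2 lay under the lower quartile of gene means (5.28), where RMA values compress folds. Il1a, the alarm cytokine interleukin-1 alpha, stood at 12.58, 12.53 and 12.57 with curdlan, against 4.98, 5.62 and 5.26 in nontreated cells, a rise of 155-fold (7.27 ± 0.12). Ccl1, a chemokine for Ccr8-bearing cells, was at 12.5, 12.48 and 12.55 with curdlan, against 6.2, 6.01 and 6.07 in nontreated cells (85.5-fold). In these genes the curdlan arrays differed from each other by under 0.1, and the gap to the nontreated arrays exceeded the spread within either group many times over.

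Cxcl2, a neutrophil attractant, measured 12.8, 12.78 and 12.76 with curdlan, against 6.07, 6.49 and 6.81 in nontreated cells (80.1-fold), and nontreated replicate 1 was the lowest of its group. Il23a and Il12b, which encode the subunits p19 and p40 of interleukin-23, differed by 5.71 ± 0.14 and 5.4 ± 0.1 on the log2 scale. Il12b stood at 11.55, 11.58 and 11.51 with curdlan, against 6.45, 6.0 and 5.97 in nontreated cells, while Il12a, which pairs with Il12b in interleukin-12, was not called (−0.43). Il23a stood at 11.75, 11.74 and 11.78 with curdlan, against 6.34, 5.57 and 6.23 in nontreated cells. Both chains of interleukin-23 were thus raised on every curdlan array, without overlap with the nontreated arrays.

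Csf1, the growth factor of macrophages, rose 21.2-fold and was even in both groups, with 11.57, 11.65 and 11.53 with curdlan, against 7.15, 7.16 and 7.22 in nontreated cells. Rgs1, which shortens G protein signals from chemokine receptors, rose 24.9-fold (9.75, 9.66 and 9.69 with curdlan, against 4.89, 5.18 and 5.1 in nontreated cells). The nontreated values of Rgs1 lay under the lower quartile of gene means (5.28). Tnfsf15, the ligand of the death domain receptor DR3, rose 25.1-fold, and Ptgs2, the inducible cyclooxygenase of prostaglandin synthesis, 26.6-fold. The remaining genes among the 15 largest rises were Ifi205 (5.15), Ccl4 (5.15), Il1b (4.68) and the orphan nuclear receptors Nr4a3 (4.48) and Nr4a1 (4.47). Il1b had the widest nontreated values of these, with 7.64, 8.4 and 8.69, and 12.94, 12.92 and 12.92 with curdlan.

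The largest falls were smaller than the largest rises. Nxpe5 measured 6.5, 6.53 and 6.67 with curdlan, against 9.18, 9.47 and 9.52 in nontreated cells, a fall of 7.06-fold (−2.82 ± 0.09, adjusted p = 1.28e-11). Arhgap19, a GTPase-activating protein, measured 7.47, 7.41 and 7.5 with curdlan, against 9.61, 9.66 and 9.61 in nontreated cells (4.49-fold lower). Rasa3, a GTPase-activating protein for Ras and Rap1, was at 7.98, 8.0 and 7.99 with curdlan, against 9.98, 10.02 and 10.02 in nontreated cells (4.05-fold lower). Dusp7, a phosphatase of the kinase ERK, measured 9.68, 9.67 and 9.69 with curdlan, against 11.72, 11.63 and 11.63 in nontreated cells. Values within each group were close in these last 3 genes, and the groups lay about 2 log2 units apart. The other 11 of the 15 largest falls lay between −2.3 (F630028O10Rik) and −1.64 (Bank1, a signalling scaffold known from B cells). They included the RNase P subunit gene Rpp25 (−2.05), the ubiquitin ligase gene Rnf144b (−1.94), the endosomal GTPase gene Rab7b (−1.87), the transporter gene Abcg3 (−1.99), the potassium channel subunit gene Kcne3 (−1.67) and the tubulin gene Tuba8 (−1.65).

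**Figure D2:**
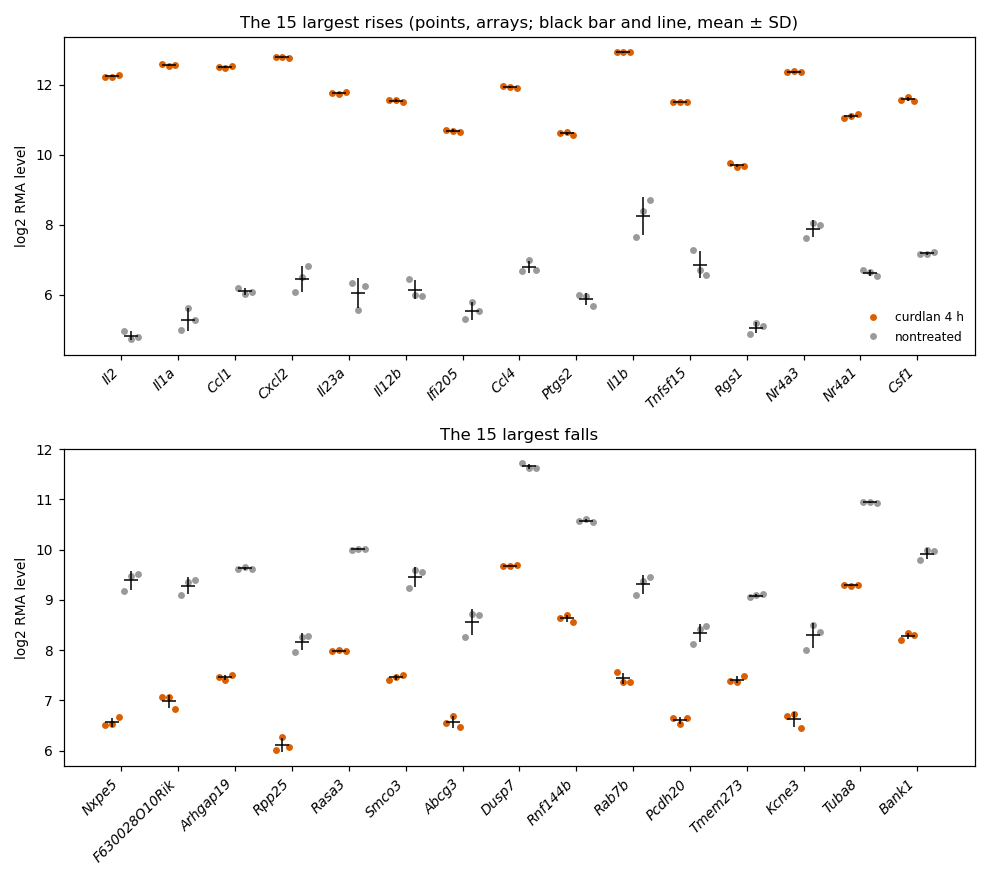
Log2 RMA level (vertical axis) of the 15 genes with the largest rises (top) and the 15 with the largest falls (bottom) on each curdlan 4 h array (orange) and nontreated array (grey), with black bars for the mean ± SD of 3 arrays. Il2 stood at 12.22 to 12.27 with curdlan and 4.72 to 4.97 in nontreated cells, and Nxpe5 at 6.5 to 6.67 and 9.18 to 9.52.

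The receptor itself was not called, and its proximal pathway moved in both directions. Clec7a, the curdlan receptor, measured 10.63, 10.6 and 10.59 with curdlan, against 10.29, 10.5 and 10.44 in nontreated cells (0.2). Of 17 measured genes of its signalling adaptors, 4 rose and 3 fell (list median 0.16). The paracaspase gene Malt1 (0.95) and its partner Bcl10 (0.64) rose, as did Pik3r1 (1.09), a regulatory subunit of PI3 kinase. Card9, which links Syk to those partners, fell (9.79, 9.81 and 9.71 with curdlan, against 10.52, 10.56 and 10.55 in nontreated cells, −0.77). Inpp5d, the inositol phosphatase SHIP1, fell to 10.88, 10.85 and 10.85 with curdlan, against 11.76, 11.72 and 11.73 in nontreated cells (−0.88). Syk (0.43) and Plcg2 (−0.17) were not called. Of 20 calcium and NFAT genes, Nfat5 (0.96) and Nfatc1 (0.77) rose and Nfatc2 (−0.7) and the inositol trisphosphate receptor gene Itpr2 (−0.73) fell.

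NF-kB genes had the largest share of raised members among the lists in the plot of list shares. Of 13 measured subunits, inhibitors and kinases of this pathway, 10 rose (76.9%, against 5.05% of all genes), with a list median of 1.53. Nfkbid, a nuclear inhibitor of the IkB family, led with 12.2, 12.15 and 12.16 with curdlan, against 8.38, 8.55 and 8.5 in nontreated cells (3.7), followed by Nfkbiz (2.32), another nuclear member. The classical inhibitor gene Nfkbia (1.53), the subunits Nfkb2 (1.57), Rel (1.33) and Relb (1.28), and Map3k14 (1.68), the kinase of the alternative pathway, also rose. The 3 members not called were Rela (0.23) and the kinase subunits Ikbkb (0.46) and Ikbkg (0.39). Among 17 adaptors and ubiquitin enzymes of TNF-type receptors 12 rose (median 0.86), led by the deubiquitinase gene Tnfaip3 (2.99) and the caspase-8 inhibitor gene Cflar (2.7).

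The matched letters of 4 promoters are shown for a kappa B motif. They were picked among raised genes of the NF-kB list and of the CXC and CX3C chemokine list that hold it. The motif was GGGANTTTC, a form of the kappa B site, searched on both strands of up to 250 bases before each start site in RefSeq's promoter table (GRCm38.p6). It was present for 171 of 15613 tested genes with a promoter (1.1%), 20 of 798 raised genes (2.5%) and 8 of 675 lowered genes (1.2%). Of 8 raised NF-kB genes with a promoter 2 held it, and of 6 raised CXC and CX3C chemokine genes 3 did. Capitals mark the match, on either strand.
Nfkb2 (chr19:46305493-46305541, plus strand): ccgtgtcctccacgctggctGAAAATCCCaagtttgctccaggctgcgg
Nfkbia (chr12:55492648-55492695, minus strand): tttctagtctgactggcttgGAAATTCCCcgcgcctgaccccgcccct
Cxcl2 (chr5:90903782-90903830, plus strand): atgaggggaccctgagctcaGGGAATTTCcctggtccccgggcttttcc
Cxcl9 (chr5:92328205-92328253, minus strand): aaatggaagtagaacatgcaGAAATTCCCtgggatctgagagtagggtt
For the motif GGAAAA, the core that NFAT proteins bind, the shares were 23.1% of raised, 19.6% of lowered and 22.3% of all genes. Matches are descriptions of letters, and bases may be shared between motifs.

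**Figure D3:**
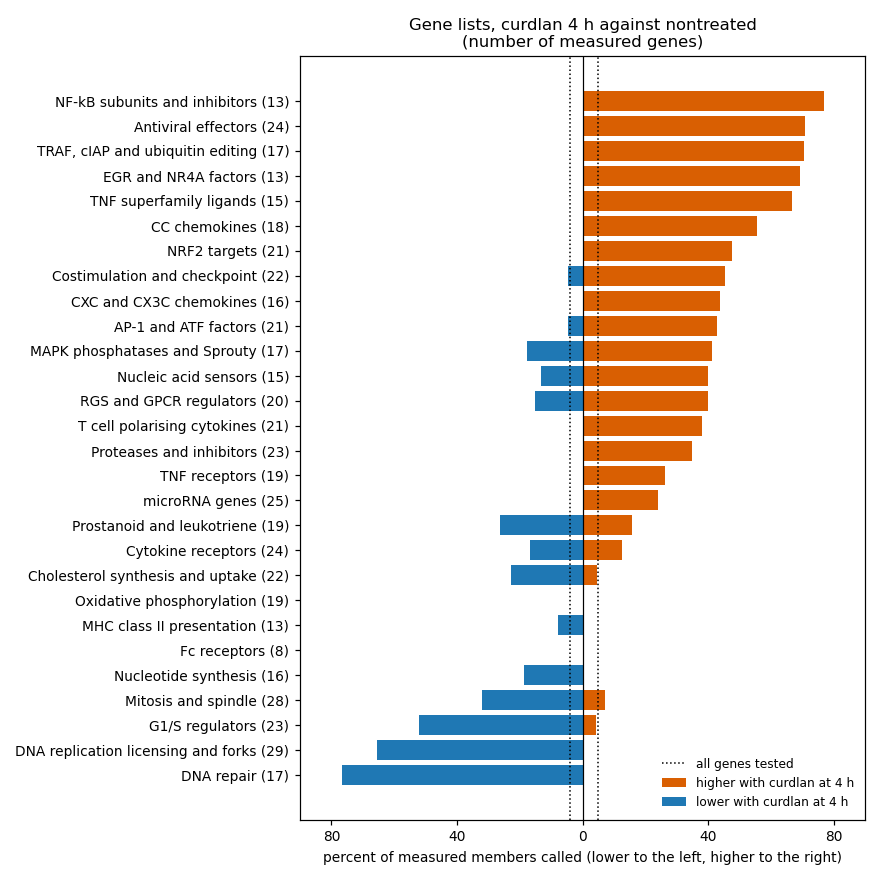
Percent of measured members (horizontal axis) of 28 gene lists that were called higher (orange, to the right) or lower (blue, to the left) with curdlan at 4 h, with the number of measured genes in parentheses. Dotted lines mark the shares over all tested genes, 5.05% and 4.15%, and the lists run from NF-kB genes (76.9% higher) to DNA repair genes (76.5% lower).

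Feedback on kinase signalling was divided by family member. Of 17 measured MAPK phosphatases and Sprouty-type inhibitors 7 rose and 3 fell. Dusp1, a nuclear phosphatase that acts mainly on p38 and JNK, measured 10.55, 10.5 and 10.49 with curdlan, against 8.46, 8.46 and 8.38 in nontreated cells (2.08), and Dusp14 (2.29), Dusp2 (1.89) and Dusp5 (1.84) rose as well. The cytoplasmic ERK phosphatase genes Dusp6 and Dusp7 fell, Dusp6 to 8.43, 8.44 and 8.39 with curdlan, against 9.71, 10.05 and 10.06 in nontreated cells (−1.52), and so did Spred2 (−0.78), an inhibitor of the Ras to ERK path. Enzymes of 1 family thus differed in sign. Of 14 measured genes of the MAPK kinases 4 rose and 2 fell. Among them Map3k8, which activates ERK, rose (1.46) and Mapk14, the p38 alpha gene, fell (−0.8).

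Early response transcription factors were still raised at 4 h. Of 13 EGR, NR4A and immediate early genes 9 rose (69.2%, median 1.18). Besides Nr4a3 and Nr4a1 these included Egr3 (1.9), Egr2 (1.37), Egr1 (1.21) and Nr4a2 (1.18). Of 21 AP-1 and ATF genes 9 rose and 1 fell. Atf3, a repressor induced by stress, led (4.16), followed by Maff (2.87), Batf (1.7) and Junb (1.62), while Jun fell (−0.69) and Fos was not called (−0.29). Myc measured 10.79, 10.79 and 10.79 with curdlan, against 10.66, 10.71 and 10.75 in nontreated cells and was not called.

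Chemokines rose in part of each family. Of 18 CC chemokine genes 10 rose (55.6%, median 0.71) and of 16 CXC and CX3C genes 7 rose (43.8%, median 0.07). Beside Ccl1 and Ccl4, the CC members included Ccl9 (3.51), the monocyte attractant Ccl7 (2.51), Ccl22 (2.49) and Ccl17 (0.71), both ligands of Ccr4 on T cells, and Ccl3 (2.49). Ccl5 rose by 0.72 and was not called with the covariate, and Ccl2 (0.56) and Ccl19 (−0.67, adjusted p = 0.0563) were not called. Ccl19 was called lower with the replicate block, with low genes left out and without nontreated replicate 2, and stood at 0.4 with the covariate. In the CXC family, the neutrophil attractants Cxcl2, Cxcl3 (9.21, 9.11 and 9.36 with curdlan, against 6.25, 5.95 and 5.84 in nontreated cells, 3.21) and Ppbp (2.16) rose, whereas Cxcl1, of the same receptor class, measured 6.89, 6.89 and 6.89 with curdlan, against 7.38, 6.89 and 6.87 in nontreated cells and was not called. The T cell attractants Cxcl9 and Cxcl10 rose 15.5-fold and 15.9-fold, with Cxcl9 at 9.72, 9.96 and 9.66 with curdlan, against 5.8, 5.8 and 5.87 in nontreated cells. Cxcl16, a transmembrane chemokine, rose by 3.52.

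Receptors for chemokines rose in 5 of 18 cases (27.8%, median 0.03), and 1 was lower with the covariate. Ccr7, which guides DCs to lymph nodes, measured 10.45, 10.24 and 10.27 with curdlan, against 9.19, 9.24 and 9.28 in nontreated cells (1.08). Cxcr5, the receptor that directs cells to B cell follicles, was at 6.29, 6.22 and 5.93 with curdlan, against 4.84, 4.88 and 4.83 in nontreated cells (1.3), and Ccr3 at 7.23, 7.88 and 7.41 with curdlan, against 5.02, 5.29 and 4.86 in nontreated cells (2.45). Nontreated means of Cxcr5 and Ccr3 lay below the lower quartile of gene means, and the curdlan arrays of Ccr3 spread over more than 0.6. Ccrl2 (2.78), a chemerin-binding relative, and Cxcr2 (0.97) also rose, and Ccr2 (0.01), Cxcr4 (0.06) and Ccr6 (−0.3) were not called.

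Cytokines that shape T cells rose in 8 of 21 cases (38.1%, median 0.18). After Il2, Il23a and Il12b came the interleukin-6 family genes Clcf1 (2.72) and Lif (2.43), then Ebi3 (1.12), a partner chain of p28 in interleukin-27, and Il15 (0.97). Il6 rose by 0.94 ± 0.09 with both groups under the lower quartile of gene means (4.52, 4.34 and 4.49 with curdlan, against 3.5, 3.45 and 3.58 in nontreated cells), and Il10 was not called (0.4). Csf2, the growth factor GM-CSF, stood at 9.35, 9.32 and 9.33 with curdlan, against 6.2, 5.83 and 6.02 in nontreated cells (9.95-fold), next to Csf1, while the other 6 of 8 colony-stimulating factor genes, Csf3 (−0.12) among them, were not called.

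The interleukin-1 family and its processing genes moved in both directions, with 7 of 20 higher and 2 lower. Il1rn, the secreted antagonist of the interleukin-1 receptor, rose by 4.26. Il1f9, which encodes interleukin-36 gamma, measured 8.69, 8.71 and 8.7 with curdlan, against 5.69, 5.2 and 5.1 in nontreated cells (3.37). Casp4, the mouse caspase-11 gene of the noncanonical inflammasome, was at 9.68, 9.75 and 9.7 with curdlan, against 6.41, 6.75 and 6.82 in nontreated cells (3.05), and Nlrp3 rose by 0.74 but was not called with the covariate (0.53). Pycard, the adaptor that joins sensors to caspase-1, fell to 9.36, 9.47 and 9.45 with curdlan, against 10.23, 10.41 and 10.45 in nontreated cells (−0.94). Casp1 (0.49), Gsdmd (−0.48) and Il18 (0.18) were not called.

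TNF superfamily ligands rose in 10 of 15 cases (66.7%, median 1.15) and their receptors in 5 of 19 (26.3%, median −0.07). The ligands included Tnfsf4, which binds OX40 on T cells (8.32, 8.35 and 8.54 with curdlan, against 5.5, 5.33 and 5.64 in nontreated cells, 2.91), Cd70 (2.58), Tnfsf14 (2.43), Tnfsf9 (2.04) and Tnf itself (1.97). The receptors Cd40 (3.04), Fas (8.6, 8.58 and 8.66 with curdlan, against 6.26, 5.66 and 5.61 in nontreated cells, 2.77), Tnfrsf4 (2.06), Tnfrsf1b (1.78) and Tnfrsf9 (1.5) rose. Both partners of the pairs Tnfsf4 with Tnfrsf4 and Tnfsf9 with Tnfrsf9 were therefore higher in the same cultures.

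Interferon-stimulated genes rose at 4 h in shares that differed by list. Of 12 measured ISG15 conjugation and TRIM genes 4 rose (33.3%, median 0.52), with 2 higher with the covariate. Of 8 measured interferon-induced GTPase genes (GBP and IRG families) 3 rose and 1 fell (median 0.12). Of 24 measured antiviral effector genes 17 rose (70.8%, median 0.98). Rsad2, which encodes viperin, measured 10.05, 9.99 and 9.98 with curdlan, against 6.57, 6.33 and 6.32 in nontreated cells (12.1-fold, 3.6 ± 0.11, adjusted p = 9.58e-12). Ifit1, which binds foreign RNA caps, measured 10.05, 9.97 and 10.04 with curdlan, against 6.36, 6.7 and 6.78 in nontreated cells (3.41), and Ifit3, its partner, 10.63, 10.53 and 10.55 with curdlan, against 7.7, 8.0 and 8.06 in nontreated cells (2.65). Mx2 (2.59), Ifit2 (2.36), Oasl1 (1.67), Xaf1 (1.63) and Oas3 (1.46) came next. Mx1 (1.06) and the kinase gene Eif2ak2 (0.84) were not called with the covariate, and Zc3hav1 (0.45), Bst2 (0.28), Ifi27l2a (0.22) and Ifitm3 (0.09) were not called at all.

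The interferon genes themselves were not called. Ifnb1 measured 5.23, 5.0 and 4.92 with curdlan, against 5.66, 5.17 and 5.07 in nontreated cells (−0.25 ± 0.14, adjusted p = 0.165), near the lower quartile of gene means, where a small change would be hard to see. Ifna4 was at −0.23. Ifng was at 0.51, under the fold threshold, and was called without nontreated replicate 1 (0.64). Of 18 interferon and interferon signalling genes 2 rose, with 6 higher after centring. With the covariate, and also without nontreated replicate 1, 1 was lower. Ikbke, a kinase that phosphorylates interferon regulatory factors, measured 9.91, 9.97 and 9.89 with curdlan, against 6.62, 6.3 and 6.35 in nontreated cells (11.3-fold), while its relative Tbk1 was not called (0.53). Irf9 stood at the threshold (0.59) and was not called with the covariate or without nontreated replicate 1. Of 9 interferon regulatory factor genes 5 rose and 1 fell. Irf7, the regulator of type I interferon genes, measured 8.71, 8.85 and 8.71 with curdlan, against 7.13, 7.2 and 7.24 in nontreated cells (1.56), and Irf8 (2.4), Irf4 (1.21) and Irf1 (1.06) also rose.

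Sensors of nucleic acid rose in 6 of 15 cases and fell in 2 (1 after centring). Ifi205, an interferon-inducible gene of the HIN-200 family, measured 10.72, 10.69 and 10.64 with curdlan, against 5.29, 5.78 and 5.53 in nontreated cells (35.5-fold). The RNA helicase genes Ifih1 (1.72), Ddx58 (0.8) and Dhx58 (0.85) rose, whereas their adaptor Mavs fell to 9.25, 9.35 and 9.26 with curdlan, against 10.02, 10.002 and 9.93 in nontreated cells (−0.7). Among the interferon-induced GTPases, Gbp5 (1.77) and Irgm1 (1.47) rose, and Iigp1 rose narrowly (0.65). The lowest means in this list, 4.5 with curdlan and 3.85 in nontreated cells, lay under the lower quartile of gene means (5.28). With low genes left out, 2 members rose. Gbp7 fell (10.38, 10.41 and 10.28 with curdlan, against 11.24, 11.33 and 11.27 in nontreated cells, −0.92), and 2 members were lower with the covariate. Of 9 measured STAT and JAK genes, which transduce cytokine signals, 3 rose (33.3%). Stat5a stood at 11.998, 11.96 and 11.97 with curdlan, against 9.34, 9.2 and 9.29 in nontreated cells (2.7), Stat5b at 1.47 and Stat6 at 0.87. Of 10 SOCS inhibitor genes 3 rose (30.0%), with Socs3 at 2.0, while Socs1 was not called (−0.11).

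Windows from the promoters of 4 raised antiviral genes are shown because they carry the motif GAAANNGAA, the core of the interferon-stimulated response element. On both strands of up to 250 bases before the start site it was present for 5 of 12 raised antiviral genes with a promoter (41.7%), 97 of 798 raised genes (12.2%), 57 of 675 lowered genes (8.4%) and 1248 of 15613 tested genes (8.0%). Capitals mark matches on either strand.
Rsad2 (chr12:26456543-26456591, minus strand): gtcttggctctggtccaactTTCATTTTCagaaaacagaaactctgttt
Ifit1 (chr19:34640785-34640833, plus strand): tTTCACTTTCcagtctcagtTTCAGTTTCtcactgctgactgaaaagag
Ifit3 (chr19:34583407-34583455, plus strand): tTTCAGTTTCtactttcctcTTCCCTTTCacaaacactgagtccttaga
Oas3 (chr5:120777700-120777748, minus strand): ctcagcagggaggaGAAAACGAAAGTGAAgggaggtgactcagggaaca
The windows of Ifit1, Ifit3 and Oas3 hold 2 matches each, which overlap in Oas3, and that of Rsad2 holds 1.

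Genes of DNA replication fell. Of 29 measured licensing and replication fork genes 19 fell (65.5%, against 4.15% of all genes; median −0.72) and the other 10 were not called. In bulk RNA, fewer cells in a phase of the cycle and less RNA per cell cannot be told apart. Cdc6, which loads the replicative helicase, measured 6.96, 6.86 and 7.0 with curdlan, against 8.27, 8.34 and 8.45 in nontreated cells (2.66-fold lower, −1.41 ± 0.07, adjusted p = 1.2e-09). Its partner Cdt1 measured 8.45, 8.53 and 8.46 with curdlan, against 9.82, 9.78 and 9.78 in nontreated cells (−1.31). The helicase subunits Mcm2 (−1.11) and Mcm6 (−0.95), the polymerase gene Pold1 (−1.11) and the maintenance methylation genes Uhrf1 (−1.07) and Dnmt1 (−1.04) fell by similar amounts. Pcna (−0.3) and Orc1 (0.01) were not called. Of 16 nucleotide synthesis genes Tk1 (−1.2), Rrm2 (−0.89) and Dut (−0.61) fell, with 6 lower with the covariate and Dut not called after centring.

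DNA repair genes fell in 13 of 17 cases (76.5%, median −0.80). Atm, the kinase that responds to double-strand breaks, measured 7.44, 7.55 and 7.54 with curdlan, against 8.58, 8.84 and 8.88 in nontreated cells (−1.26 ± 0.07), and Chek2, its target kinase, 7.56, 7.6 and 7.67 with curdlan, against 8.4, 8.83 and 8.89 in nontreated cells (−1.1). Chek1 (−0.93), the Fanconi genes Fanca (−1.08), Fancd2 (−0.9) and Fanci (−0.83), Rad54l (−0.92) and Exo1 (−0.81) fell. Brca1 fell by 0.67 on the log2 scale and was not called after centring, and Parp1 (−0.54), Atr (0.32), Xrcc1 (−0.32) and Blm (−0.26) were not called.

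Regulators of the entry into S phase and of mitosis fell in part. Of 23 G1/S genes 12 fell and 1 rose (median −0.67). The transcription factors E2f2 (−1.02) and E2f1 (−0.93), cyclin E1 (Ccne1, −0.8) and Cdk2 (−0.79) fell, and Mxd1, an antagonist of Myc, rose (0.89). Ccnd1 measured 11.64, 11.63 and 11.64 with curdlan, against 12.08, 12.1 and 12.11 in nontreated cells, a difference of −0.46 ± 0.03 that lay under the fold threshold. Of 28 mitosis genes 9 fell and 2 rose (median −0.53), with 14 lower without nontreated replicate 1 and 21 lower with the covariate. Aurkb led the falls with 10.29, 10.33 and 10.31 with curdlan, against 11.42, 11.43 and 11.4 in nontreated cells (−1.1). The 2 raised genes were the stress-induced polo-like kinases Plk3 (11.96, 11.99 and 12.02 with curdlan, against 9.32, 9.52 and 9.44 in nontreated cells, 2.56) and Plk2 (2.16), while Plk1, the mitotic member, fell (−0.71).

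Windows from the promoters of 4 lowered replication genes are shown for the E2F motif, searched as TTCCCGCC, TTTCCCGC or TTTGGCGC, the first 2 of which can overlap. It was present for 6 of 15 lowered replication genes with a promoter, 3 of 11 lowered repair genes (27.3%), 2 of 11 lowered G1/S genes, 0 of 6 lowered mitosis genes, 60 of 675 lowered genes (8.9%), 36 of 798 raised genes (4.5%) and 682 of 15613 tested genes (4.4%). Capitals mark the match.
Cdc6 (chr11:98907993-98908040, plus strand): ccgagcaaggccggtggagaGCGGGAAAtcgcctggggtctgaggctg
Uhrf1 (chr17:56303269-56303316, plus strand): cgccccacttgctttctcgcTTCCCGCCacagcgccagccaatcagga
Mcm6 (chr1:128359725-128359772, minus strand): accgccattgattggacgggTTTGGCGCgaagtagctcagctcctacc
Mcm7 (chr5:138172021-138172068, minus strand): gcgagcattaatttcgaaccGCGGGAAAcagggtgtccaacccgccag
The shares for TTTGAA, the CHR element of late cell cycle genes, were 14.4% of lowered, 13.8% of raised and 15.7% of all genes, and 1 of 6 lowered mitosis genes with a promoter held it.

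Metabolic genes changed at single steps. Acod1, which makes itaconate from a citric acid cycle intermediate, measured 10.54, 10.57 and 10.61 with curdlan, against 6.44, 6.79 and 6.77 in nontreated cells (14.97-fold). Idh1, the cytosolic isocitrate dehydrogenase gene, fell to 7.61, 7.62 and 7.64 with curdlan, against 8.65, 9.08 and 9.02 in nontreated cells (2.45-fold lower). Of the remaining 16 citric acid cycle genes, Aco1 fell narrowly (−0.66) and not with the covariate or after centring, and 0 of 19 oxidative phosphorylation genes were called (limma, 4 at an unadjusted p under 0.05). Of 24 glycolysis genes, Slc2a6 (1.22) and Pfkp (0.98) rose, and Bnip3 (−0.91), Pdk1 (−0.74) and Pfkm (−0.68) fell, Pfkm not after centring. Nos2, the inducible nitric oxide synthase, measured 8.22, 8.3 and 8.1 with curdlan, against 6.84, 6.35 and 6.25 in nontreated cells (1.73), and Gch1, the first enzyme of its cofactor tetrahydrobiopterin, rose by 2.38. Odc1 (0.78) and Sat1 (0.71) of polyamine metabolism rose but were not called without nontreated replicate 1 or with the covariate, where Odc1 was at −0.11.

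Lipid genes moved in both directions. Of 22 cholesterol genes 5 fell and 1 rose (median −0.40), with Dhcr7 (−1.31) and Lss (−1.02) of synthesis lower and Ch25h, which makes 25-hydroxycholesterol, higher (1.51). Elovl6, which elongates palmitate, measured 8.97, 9.12 and 8.99 with curdlan, against 10.5, 10.63 and 10.55 in nontreated cells (−1.53), and Scd2 (−1.01) and Srebf1 (−0.75) also fell, the last of them not with the covariate. Lpl, the lipoprotein lipase gene, rose (1.7). Among prostanoid and leukotriene genes 3 of 19 rose and 5 fell, with 1 lower after centring and 8 lower with the covariate. The E prostanoid receptors went opposite ways, with Ptger4 (2.13) and Ptger2 (0.81) higher and Ptger3 lower (7.8, 7.85 and 7.83 with curdlan, against 8.97, 9.19 and 9.16 in nontreated cells, −1.28).

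Stress genes under the factor NRF2 rose in 10 of 21 cases (47.6%, median 0.55). Slc7a11, the cystine importer, measured 12.1, 12.1 and 12.13 with curdlan, against 9.1, 9.54 and 9.61 in nontreated cells (2.69), and Hmox1, the haem-degrading enzyme, 11.24, 11.22 and 11.21 with curdlan, against 8.38, 8.64 and 8.71 in nontreated cells (2.64). Srxn1 (2.05), Sqstm1 (1.54), Nqo1 (1.48) and Gclc (1.36) followed. The motif TGACNNNGC, the core of the antioxidant response element, was present in promoters of 3 of 8 raised members, against 12.5% of all genes. Of 21 amino acid and ATF4 genes 6 rose, Ddit3 (1.18), Trib3 (1.08) and Cth (1.02) after Slc7a11. Of 20 endoplasmic reticulum chaperone genes Herpud1 (1.35) and Dnajb9 (0.81) rose, Dnajb9 not with the covariate, and the main chaperone Hspa5 was not called (0.15).

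Surface genes for contact with T cells rose in 10 of 22 cases (45.5%, median 0.38). Cd83, a maturation marker, led with 12.18, 12.16 and 12.17 with curdlan, against 7.96, 8.04 and 8.04 in nontreated cells (4.16). The checkpoint ligands Cd274 (PD-L1), at 11.68, 11.7 and 11.69 with curdlan, against 9.61, 9.77 and 9.52 in nontreated cells (2.06), and Pdcd1lg2 (PD-L2, 1.54) rose along with the activating ligand Cd80 (1.11). Cd86 rose narrowly (0.65) and not with the covariate, and Cd48 fell (−0.68) but not after centring. Of 13 measured class II presentation genes, 0 rose (limma, 7 at an unadjusted p under 0.05 in either direction), with H2-Ab1 at 0.17 and Cd74 at 0.15. The 1 that fell was Marchf1, a ubiquitin ligase that removes class II molecules from the surface (9.06, 8.99 and 8.98 with curdlan, against 9.82, 9.97 and 9.86 in nontreated cells, −0.87).

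Receptors for pathogens and lipids were raised singly. The scavenger receptor gene Olr1 rose 11.04-fold (8.22, 8.37 and 8.08 with curdlan, against 4.84, 4.79 and 4.64 in nontreated cells), and Cd36 (1.62), Clec4e (1.97) and Clec4d (1.35) rose, while Cd209a fell (−0.9), out of 23 lectin and scavenger genes (3 lower with the covariate). The nontreated values of Olr1 lay under the lower quartile of gene means (5.28). Of 20 RGS and G protein receptor genes 8 rose and 3 fell. Gpr84, a receptor of medium-chain fatty acids, measured 10.9, 10.9 and 10.92 with curdlan, against 6.99, 7.32 and 7.14 in nontreated cells (3.76), and Ptafr (2.54), Gpr132 (2.12) and P2ry2 of the purinergic list (2.56) also rose. Rgs14 fell (−1.05), in contrast to Rgs1. Of 23 proteases and inhibitors 8 rose, led by the collagenase gene Mmp13 (4.0), the plasminogen activator gene Plat (2.52) and the granzyme B inhibitor gene Serpinb9 (2.41). Of 23 integrin and adhesion genes 5 rose and 2 fell. Jam2 (2.73), Itgal (1.78), Itga5 (1.68), Icam1 (1.68), a ligand of the Itgal product, and Cd44 (1.64) rose, and the integrin chains Itga1 (−0.72) and Itga6 (−0.61) fell, Itga6 not after centring.

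Among 24 transcription factors of DC and myeloid identity 3 rose and 4 fell. Besides Irf8 and Irf4, Prdm1 was at the threshold (0.59) and not called with the covariate or without nontreated replicate 1. Id1 measured 8.47, 8.53 and 8.46 with curdlan, against 9.81, 9.77 and 9.75 in nontreated cells (−1.29), and Mef2c (−1.06), Hhex (−1.04) and Id3 (−0.97) fell as well. Spi1 (0.08), Zbtb46 (0.35) and Batf3 (0.01) were not called. Of 25 histone methylation genes Kdm6b, the H3K27 demethylase, rose most (10.79, 10.8 and 10.79 with curdlan, against 7.88, 7.98 and 7.99 in nontreated cells, 2.84). With the covariate 1 member of this list was lower. Of 16 HDAC and acetyltransferase genes Hdac9 (6.94, 6.99 and 6.96 with curdlan, against 8.21, 8.18 and 8.15 in nontreated cells, −1.22) and Hdac5 (−1.11), both class IIa deacetylases, fell (4 members lower with the covariate), and the class IIa members Hdac4 (−0.17) and Hdac7 (−0.38) were not called.

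Factors that destroy cytokine messages rose in part. Zc3h12a (1.73) and Zc3h12c (1.91) of the Regnase family and Zfp36 (1.43) and Zfp36l1 (1.22), which bind AU-rich elements, rose, while the related Zfp36l2 fell to 9.81, 9.97 and 9.88 with curdlan, against 10.73, 10.81 and 10.81 in nontreated cells (−0.9). Rc3h1 rose by 0.71, and the other 10 of 16 members were not called.

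Of 25 measured microRNA genes 6 rose, and their mature products are shown to place them by seed, the bases 2 to 8 that pair with targets. Capitals mark the seed. The array table names the gene and not the arm, and the arms given are those usually more abundant, with both for miR-142a. All 6 genes matched RefSeq's miRNA table (GRCm38.p6).
mmu-miR-155-5p (chr16:84714143-84714165, plus strand): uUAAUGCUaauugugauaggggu
mmu-miR-146a-5p (chr11:43374435-43374456, minus strand): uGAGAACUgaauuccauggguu
mmu-miR-142a-3p (chr11:87756903-87756925, plus strand): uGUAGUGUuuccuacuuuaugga
mmu-miR-142a-5p (chr11:87756867-87756887, plus strand): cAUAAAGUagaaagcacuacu
mmu-miR-29a-3p (chr6:31062673-31062694, minus strand): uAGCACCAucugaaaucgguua
mmu-miR-221-3p (chrX:19146307-19146329, minus strand): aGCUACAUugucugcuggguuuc
mmu-miR-222-3p (chrX:19146901-19146923, minus strand): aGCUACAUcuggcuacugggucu
The miR-221 and miR-222 products share the seed GCUACAU, and the other seeds shown differ. Mir155 differed most, with 9.75, 9.87 and 9.89 with curdlan, against 5.27, 5.75 and 5.63 in nontreated cells (19.4-fold, 4.28 ± 0.11, adjusted p = 1.54e-12). Mir146, which gives miR-146a, measured 5.72, 6.07 and 5.75 with curdlan, against 3.97, 4.57 and 4.81 in nontreated cells (1.4), and Mir142 measured 8.32, 8.31 and 8.32 with curdlan, against 6.94, 7.54 and 7.58 in nontreated cells (0.97). In both the lowest value was that of nontreated replicate 1, and the nontreated values of Mir146 lay under the lower quartile of gene means. Mir29a (0.83), Mir222 (0.7) and Mir221 (0.64) differed less. Of the 6, Mir155 was the 1 gene still called with the covariate, where Mir146 was at 0.11 and Mir142 at 0.17. In that fit 2 members of the whole list were called higher and 1 lower. Mir221 and Mir222 were also not called without nontreated replicate 1 (0.57 and 0.56).

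Markers of other cells were mostly not called. The 10 macrophage markers averaged 8.03 to 8.06 on the curdlan arrays and 8.03 to 8.09 on the nontreated arrays. Of these 1 rose, and 0 rose with the covariate. The 7 plasmacytoid DC markers averaged 6.91 to 6.95 with curdlan and 6.88 to 7.09 in nontreated cells. Of these 1 fell, and 0 fell with the covariate or after centring. Of 2 erythroid markers 0 were called (limma, 0 at an unadjusted p under 0.05). Over the T cell, B cell, neutrophil and fibroblast lists 0 of 9, 0 of 6, 0 of 9 and 0 of 10 genes were called (limma, 4, 2, 4 and 2 at an unadjusted p under 0.05), with mean levels of 5.11 to 5.70 on the curdlan arrays and 5.09 to 6.09 on the nontreated arrays. Of 7 NK cell markers, Nkg7 (6.68, 6.64 and 6.32 with curdlan, against 6.05, 5.59 and 5.42 in nontreated cells, 0.86) and Klrk1 (0.67) rose. The NK list as a whole averaged 5.76 to 5.86 on the curdlan arrays and 5.62 to 5.75 on the nontreated arrays, and the defining genes Ncr1 (−0.26) and Eomes (−0.07) were not called. Klrk1 was not called without nontreated replicate 1 (0.42) and stood at −0.24 with the covariate. With the covariate 1 B cell marker was called higher. Of 7 mast cell markers Hdc, the histamine-forming enzyme, rose (9.63, 9.69 and 9.7 with curdlan, against 8.06, 7.89 and 8.05 in nontreated cells, 1.67), and Cpa3 (0.004) and Kit (−0.29) were not called.

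The 4 h arrays were also compared with the 2 h arrays to see which parts of this response were later. Against 2 h, 556 genes were higher (2.79% of those tested) and 260 lower (1.3%) at 4 h. This comparison shares the curdlan 4 h arrays with the one above, and curdlan 2 h against nontreated cells, with 439 genes higher (2.2%) and 279 lower (1.4%), shares the nontreated arrays, so their counts are not independent. Differences in this paragraph and the next are 4 h minus 2 h. Of 24 antiviral genes, 16 were higher at 4 h than at 2 h, while 1 was higher at 2 h than in nontreated cells. Ifit3 stood at 10.63, 10.53 and 10.55 at 4 h and 7.59, 7.5 and 7.15 at 2 h (3.15 ± 0.13), and its 2 h values lay below all 3 nontreated values. Ifi205 (3.94), Olr1 (3.35), Abhd12b (3.12) and Il1f9 (3.03) were the other members of the 5 largest differences upward.

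Of 29 replication genes, 15 were lower at 4 h than at 2 h and 1 was lower at 2 h than in nontreated cells. Cdt1 stood at 8.45, 8.53 and 8.46 at 4 h and 9.3, 9.23 and 9.3 at 2 h (−0.8 ± 0.04). Of 13 EGR and NR4A genes, 6 were lower at 4 h than at 2 h, 0 were higher and 10 were higher at 2 h than in nontreated cells. Egr1 measured 9.71, 9.71 and 9.74 at 4 h and 10.75, 10.87 and 10.73 at 2 h (−1.06 ± 0.06). Ccl7 was 9.72, 9.77 and 9.8 at 4 h and 11.23, 11.34 and 11.4 at 2 h (−1.56 ± 0.06), among the 5 largest differences downward with Nxpe5 (−1.79), Arhgap19 (−1.68), Dusp7 (−1.46) and Phlda1 (−1.45). Of 13 NF-kB genes, 3 were higher and 1 lower at 4 h than at 2 h.

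**Figure D4:**
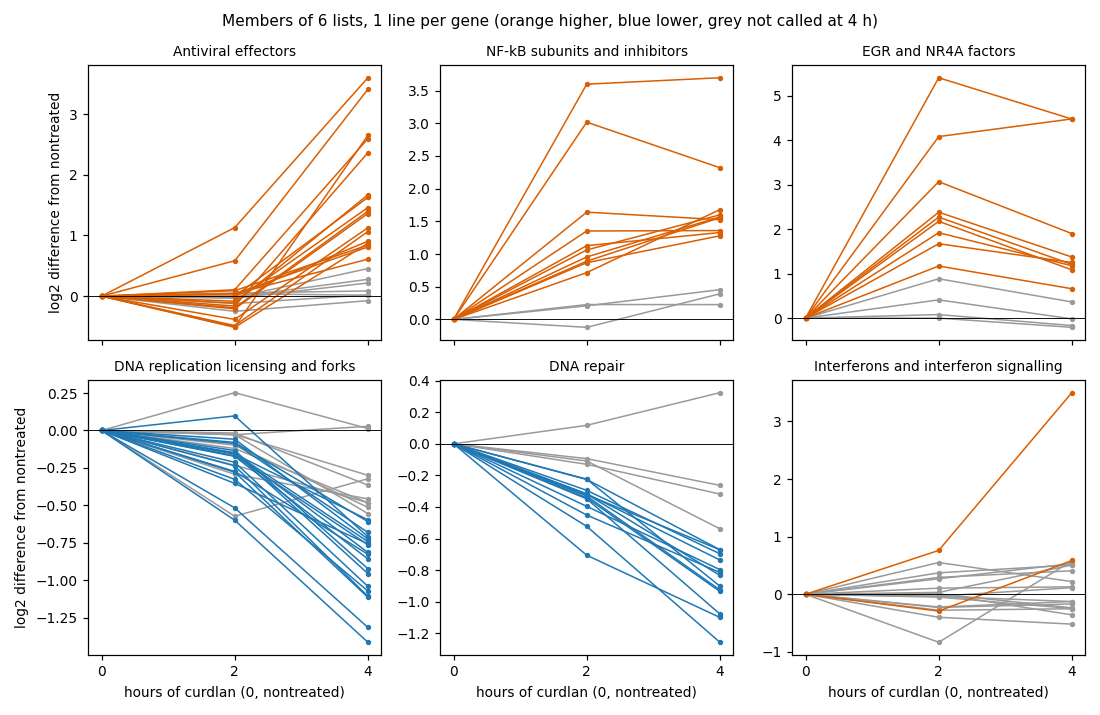
Log2 difference from the nontreated mean (vertical axis) at 0, 2 and 4 h of curdlan (horizontal axis) for the members of 6 gene lists, with 1 line per gene. Orange lines are genes higher at 4 h, blue lines genes lower at 4 h and grey lines genes not called, and Ifit1 is at 0.58 at 2 h and 3.41 at 4 h while Egr1 is at 2.27 and 1.21.

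In all, 9 genes were lower than nontreated at 2 h and higher than nontreated at 4 h. Gbp5, an interferon-induced GTPase that promotes inflammasome assembly, measured 7.26, 7.61 and 7.61 in nontreated cells, 6.89, 6.83 and 6.64 at 2 h and 9.32, 9.22 and 9.23 at 4 h, without overlap between any of the groups. Gm12250, another interferon-induced GTPase gene, measured 8.92, 9.07 and 9.1 in nontreated cells, 8.12, 7.95 and 8.08 at 2 h and 9.97, 9.99 and 9.9 at 4 h. Slfn1, a Schlafen family gene, was at 6.71, 7.1 and 6.98 in nontreated cells, 6.14, 6.14 and 6.36 at 2 h and 8.25, 8.15 and 8.02 at 4 h. The others were Tmem140, Klhl24, Ppfibp2, A530064D06Rik, Cytip and Senp8. The rise at 4 h of the last 3 was not called without nontreated replicate 1 or with the covariate, under which A530064D06Rik stood at −0.24 and Senp8 at −0.26. Of the 8 measured GBP and IRG genes, 4 were lower at 2 h than in nontreated cells and 5 were higher at 4 h than at 2 h.

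**Figure D5:**
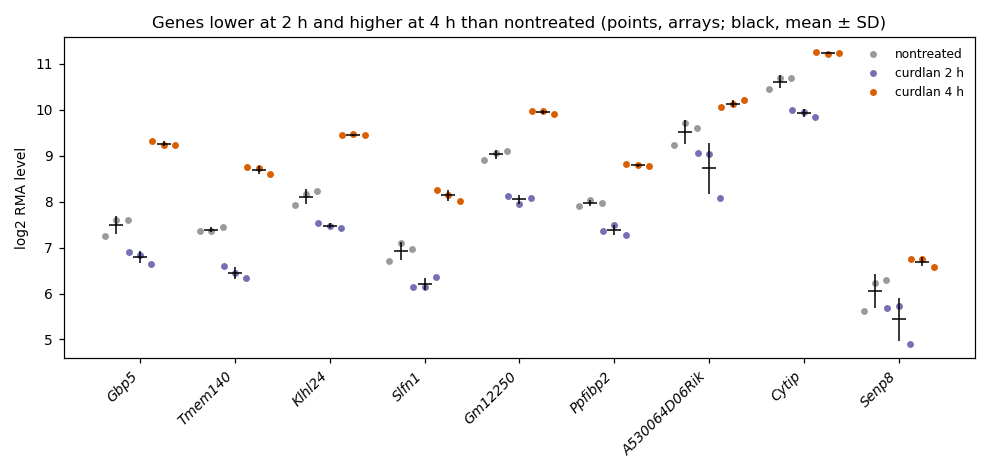
Log2 RMA level (vertical axis) on each array of the 9 genes called lower at 2 h and higher at 4 h than nontreated (horizontal axis), with nontreated arrays in grey, curdlan 2 h arrays in purple and curdlan 4 h arrays in orange. Black bars give the mean ± SD of 3 arrays, and Gbp5 has means of 7.49, 6.79 and 9.26 in that order.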

How the data were processed

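RNA of 15 D1 samples was hybridised to Affymetrix Mouse Gene 1.0 ST arrays, 1 sample per array. The authors deposited log2 values after RMA (background correction, quantile normalization and summary per probe set, for which the submitters' notes name affy and R), and these deposited log2 values were used as given. Precision is limited by how many arrays there are. Of 34760 probe sets, 21640 had 1 gene symbol in GEO's platform table, 1321 several and 11799 none. Only the first kind was named. A gene with several probe sets (954 genes) was represented by 1 of them, the one with the highest mean level.

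All 15 arrays were fitted with limma 3.58.1 in R 4.3.3 (5 groups, 10 residual degrees of freedom, 19937 genes), and p-values were adjusted by the Benjamini-Hochberg method. A gene was called at an adjusted p under 0.05 and at least 1.5-fold. The fit was first tested on simulated data. These had independent noise with the same spread of a gene on every array, so deviations of whole arrays were not covered. The named genes were the 15 largest rises and falls among called genes whose groups did not overlap, a fixed set, up to 8 called and 4 uncalled members of each list, up to 10 genes called in opposite directions at 2 h and 4 h, and the 5 largest differences each way between 4 h and 2 h. Rel, Relb, Jun, Ccl17, Ccl5, Mx1, Eif2ak2, Mcm7, Brca1, Cd86 and Cd48 were added after their values were seen. The comparison, members and lists were chosen with earlier results of these data known. Of 1395 listed genes, 1273 were measured. Alternatives were array weights, a replicate block, centring, a covariate, other probe set rules and normalizations, other thresholds and the removal of single arrays.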

Additional observations from a re-analysis of the deposited data

Results flagged for a closer look

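In all, 9 genes were called in opposite directions, lower at 2 h and higher at 4 h than in nontreated cells. The log2 difference of 4 h minus 2 h was 2.47 for Gbp5, 2.24 for Tmem140, 1.98 for Klhl24, 1.93 for Slfn1, 1.90 for Gm12250, 1.42 for Ppfibp2, 1.41 for A530064D06Rik, 1.31 for Cytip and 1.26 for Senp8. Both differences share the nontreated arrays. Without nontreated replicate 1, the rise at 4 h was not called for A530064D06Rik (0.48), Cytip (0.55) and Senp8 (0.43).

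Probe sets outside the named genes also changed. Of the 1321 that carry several gene symbols, 69 were higher with curdlan at 4 h and 19 lower, with a median difference of −0.0014. Of the 11799 that carry no symbol, 1196 were higher and 199 lower. For comparison, of the 21640 with 1 symbol, 1112 were higher and 869 lower. Over all tested genes the shares were 5.05% higher and 4.15% lower. The median level of the probe sets without a symbol served as the covariate of the alternative fit.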

How the results depend on the processing

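For curdlan 4 h against nontreated cells, the 1007 higher and 828 lower calls became 592 and 347 when the fold threshold was tested with treat, 2810 and 4622 with no fold threshold, and 475 and 165 at a minimum of 2-fold. Centring gave 545 lower and the covariate 1327 lower. Samples shared only a replicate number (correlation of same-numbered deviations 0.18, 0.19 and −0.0031), and the replicate block gave 1004 and 830. Curdlan replicates 1 and 2 correlated best with the nontreated array of their own number and replicate 3 did not. Array weights gave 886 and 955 and a fit of the 6 arrays 985 and 823. Leaving out 1 array gave 871 to 1124 higher and 804 to 924 lower. The count of genes higher with curdlan at 4 h than at 2 h (556) became 2465 with no fold threshold and 196 at 2-fold, and was 499 to 597 when 1 array was left out. The count of genes lower with curdlan at 4 h than at 2 h (260) became 2726 with no fold threshold, 37 at 2-fold and 620 with the covariate, and was 249 to 290 when 1 array was left out. The 9 genes called in opposite directions became 2 with treat and 6 to 11 when 1 array was left out. List members that were not called were left out of the next count. Among 373 named genes, 4 changed sign, all with the covariate: A530064D06Rik (−0.24), Senp8 (−0.26), Odc1 (−0.11) and Klrk1 (−0.24). Ccl19, which was not called and not counted, also changed sign with the covariate. The cause was not tested. Genes near the lower quartile of levels have folds that RMA compresses.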

Other observations

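Genes of small nucleolar RNAs, a class chosen after its values were seen, were higher in 9 of 51 measured cases and lower in 0 (limma), with a median difference of 0.23. Over all genes tested, 5.05% were higher and 4.15% lower. Nontreated replicate 1 was the lowest nontreated array in 30 of the 51, and without it 3 were higher, 0 were lower and the median difference was 0.15. In that fit 871 of all 19937 genes were higher and 924 lower.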
